A study of Mus musculus with 13 samples.

Results

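Gene expression at the 2 spinal levels was compared in males, in 7 of the 13 libraries of the series. These are 4 libraries of Ret-EGFP cells from dorsal root ganglia (DRG) at spinal levels L6 and S1 (L6S1 A, D, E and F) and 3 from levels L3, L4 and L5 (L345 A, B and C). They were chosen by their titles, which give the sex, the level and the replicate letter, and all of them were fitted together without the 6 female libraries. The male mice of both groups were C57BL/6 and 3 months old, and carried the allele Tg(Ret-EGFP)SJ. The design text describes heterozygotes with enhanced green fluorescent protein (EGFP) knocked into the Ret locus, so that Ret activity drives the reporter. All 7 libraries carry it, and the labels give no treatment. Ganglia were pooled, dissociated and sorted by fluorescence, and a library was made from 10 ng of RNA of each pool. The L345 pools held 30 ganglia of 5 mice (A), 24 of 4 (B) and 12 of 2 (C), and the L6S1 pools 36 ganglia of 9 mice (A), 16 of 4 (D), 12 of 3 (E) and 16 of 4 (F). The labels do not say whether a mouse gave ganglia to both levels. The p-values measure the spread between these pools.

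Neurons of the DRG carry touch, temperature, pain, itch and visceral sensation to the spinal cord. Ganglia at L3 to L5 mainly serve the hindlimb, and those at L6 and S1 receive much of the input from the pelvic organs. Ret is the signalling receptor of the GDNF family ligands, which bind it through the co-receptors Gfra1, Gfra2 and Gfra3. In adult DRG it marks most nonpeptidergic nociceptors, C low-threshold mechanoreceptors and part of the A-fibre mechanoreceptors. Position along the body axis is recorded in the Hox genes, transcription factors in 4 chromosomal clusters whose higher-numbered groups are used further towards the tail.

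Levels below are CPM, the library-scaled counts, over the genes tested and corrected by each library's TMM factor (normalised CPM), and are given in the order L345 A, B and C, then L6S1 A, D, E and F. Total counts ran from 13030096 in L345 A to 27011995 in L6S1 F. A count of 3, the floor used for a gene at 0, stands at 0.111 to 0.230 CPM and covers counting error only, because the amplified reads carry no identifiers of single molecules. Of 25323 genes with a count in these libraries, 14761 passed the filter on low counts and were tested. The counts of L345 B and C, the pair closest to each other, differed by a mean chi-square of 5.83 per gene, so no library was a copy of another. Ret, the sorted gene, was at 201, 189 and 196 normalised CPM in the L345 libraries and 189, 158, 83.3 and 209 in the L6S1 libraries, and its L6S1 and L345 values overlapped. The X-inactivation transcript Xist was at most 0.52 CPM in every library.

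At L6S1, 2 of 14761 genes changed at an adjusted p under 0.05, and both rose (0.0135% of the genes tested). They were Hoxc11, a transcription factor of the HoxC cluster, and Cpxm2, a secreted member of the carboxypeptidase family. In 1270 genes (8.6%) every L6S1 library lay above every L345 library, and in 1505 (10.2%) every one lay below. Before adjustment, 2635 genes (17.85%) had p under 0.05, of which 1505 were higher and 1130 lower. A further 12 genes had an adjusted p between 0.05 and 0.1, all of them higher. The lowest adjusted p of a lower gene was 0.196, for Cdr1.

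Hoxc11 (ENSMUSG00000001656, chromosome 15, 102954427 to 102957708, plus strand, GRCm38) was at 0.0723, 0 and 0 normalised CPM in the L345 libraries and 2.05, 2.42, 2.74 and 2.31 in the L6S1 libraries. It was all but absent from the L345 libraries, which held 1 count of it in all against 214 counts in the L6S1 libraries, and it was level across the 4 L6S1 libraries. Because of that single count the summed ratio of 134 has an exact 95% counting interval of 23.9 to 5338, and the gene passed the filter on low counts through its L6S1 libraries alone. The edgeR adjusted p was 0.0198, and with L6S1 D and E both left out it was 0.144.

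Cpxm2 (ENSMUSG00000030862, chromosome 7, 132032687 to 132154739, minus strand) was at 0.289, 0.225 and 0.142 normalised CPM in the L345 libraries and 1.97, 5.52, 4.36 and 3.87 in the L6S1 libraries. The lowest L6S1 library, A, was 6.798 times the highest L345 library, and D, E and F stood higher than A (log2 fold change 4.16 ± 0.54, adjusted p = 0.0280 by edgeR). Its 12 counts in the L345 libraries against 350 in the L6S1 libraries give a ratio of 18.3 with an exact 95% counting interval of 10.4 to 35.8, and its L345 values lay near the floor, so it too passed the filter through its L6S1 libraries. Opposite-strand gene Gm15677 shares 7.59% of its exon bases, and whether counting used strand is not given in the sources used here.

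Both calls rest on all but 1 of the libraries. Leaving out L6S1 A gave 62 calls, 40 higher and 22 lower, with Hoxc11 and Cpxm2 among them. Leaving out any other library, controls included, gave 0 calls by edgeR, with 1487 genes at unadjusted p under 0.05 without L6S1 D, 1677 without E, 2692 without F, 939 without L345 A, 1450 without B and 1417 without C. Without the filter on low counts, edgeR called 90 of 25323 genes and DESeq2 116, 106 higher and 10 lower. With the filter, limma voom called 1, Hoxc11. The log2 fold change of Cpxm2 stayed between 3.76 and 4.39 over 17 alternatives, which refit the same counts. Cpxm2 was called in 8 of the 17 and Hoxc11 in 9. With L6S1 D and E both left out, the edgeR adjusted p of Cpxm2 was 0.257.

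**Figure D1:**
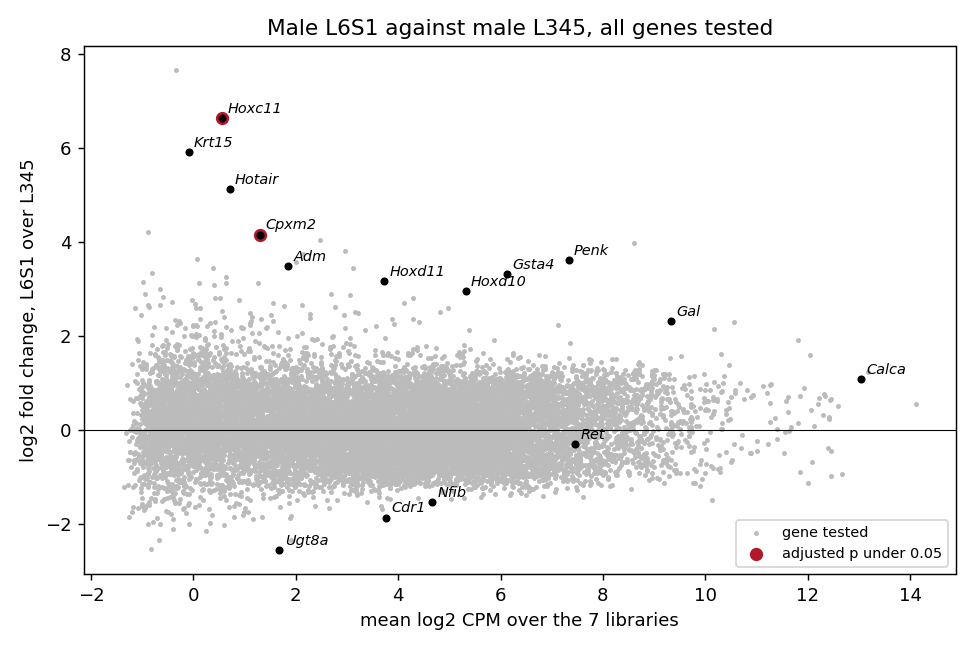
Log2 fold change of L6S1 over L345 in males (vertical axis) against the mean log2 CPM over the 7 libraries (horizontal axis) for the 14761 genes tested. Grey points are genes, red points are the 2 genes with an adjusted p under 0.05, Hoxc11 and Cpxm2, and black points are other genes that the text names.

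The windows around the annotated starts of Cpxm2 and of 3 neighbouring HoxD genes are shown because Cpxm2 was called and the HoxD genes lie beside one another and stood higher in the same libraries. Each runs from 250 bases before to 50 after the start (RefSeq, GRCm38.p6), 5′ to 3′ on the gene's strand, with CG dinucleotides in capitals. They lie at chr7:132154692-132154991, minus strand for Cpxm2, chr2:74682073-74682372, plus strand for the downstream of 2 Hoxd11 starts, chr2:74691641-74691940, plus strand for Hoxd10 and chr2:74697513-74697812, plus strand for Hoxd9.
Cpxm2: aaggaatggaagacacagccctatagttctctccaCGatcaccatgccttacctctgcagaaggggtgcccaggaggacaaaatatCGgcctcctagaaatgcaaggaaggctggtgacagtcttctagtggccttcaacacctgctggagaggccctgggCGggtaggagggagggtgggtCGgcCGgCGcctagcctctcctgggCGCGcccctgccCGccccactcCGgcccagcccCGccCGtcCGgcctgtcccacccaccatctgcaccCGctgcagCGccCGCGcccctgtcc
Hoxd11: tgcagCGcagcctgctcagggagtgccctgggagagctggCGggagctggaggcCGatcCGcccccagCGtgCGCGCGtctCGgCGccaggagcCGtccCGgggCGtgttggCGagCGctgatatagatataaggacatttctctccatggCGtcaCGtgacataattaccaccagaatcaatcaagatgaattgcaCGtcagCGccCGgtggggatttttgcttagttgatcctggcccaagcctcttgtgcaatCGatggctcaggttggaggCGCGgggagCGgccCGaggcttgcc
Hoxd10: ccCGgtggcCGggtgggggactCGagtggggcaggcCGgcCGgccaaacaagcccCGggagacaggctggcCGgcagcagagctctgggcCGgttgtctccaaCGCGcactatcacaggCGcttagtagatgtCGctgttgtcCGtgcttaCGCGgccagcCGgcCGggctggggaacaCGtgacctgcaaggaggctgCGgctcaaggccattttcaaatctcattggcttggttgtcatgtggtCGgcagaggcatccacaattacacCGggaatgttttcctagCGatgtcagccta
Hoxd9: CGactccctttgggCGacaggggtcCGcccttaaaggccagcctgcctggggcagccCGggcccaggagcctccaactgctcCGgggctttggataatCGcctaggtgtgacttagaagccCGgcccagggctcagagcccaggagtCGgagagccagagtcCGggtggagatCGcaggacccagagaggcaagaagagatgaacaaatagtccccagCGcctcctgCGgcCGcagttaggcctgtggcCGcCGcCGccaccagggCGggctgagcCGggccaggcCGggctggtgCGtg
Of the windows shown, that of Cpxm2 holds 17, that of Hoxd11 25, that of Hoxd10 22 and that of Hoxd9 20. The window at the upstream Hoxd11 start, chr2:74679308-74679607, plus strand, not shown, holds 4. The median over 32851 windows of the same length is 7, and 31.4% of them hold 17 or more. The motif was searched as the letters CG, which read the same on both strands.

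The 5 genes of Hox groups 9 to 13 whose libraries separated were all higher at L6S1, and they belong to the HoxC and HoxD clusters. Of 16 listed genes, 9 passed the filter. Hoxc11 alone was called. In 5 of 9 tested members (55.6%) every L6S1 library lay above every L345 library, and in 0 every one lay below. Over all genes tested these shares were 8.6% and 10.2%. Hoxc11 is among the 5. It passed the filter through its L6S1 libraries alone, so it could hardly lie anywhere but above, and the share is raised by that. The median log2 fold change of the 9 was 1.07, beside 0.04 over all genes tested. It was 0.99 without L6S1 D and E and 0.69 with a length trend in the fit. The median length of the 9 is 2430 bases, beside 3630 over all genes tested.
Hoxd11 was at 4.12, 0.540 and 2.51 normalised CPM in the L345 libraries and 22.6, 25.6, 18.9 and 17.7 in the L6S1 libraries (log2 fold change 3.17 ± 0.54, adjusted p = 0.0804). Hoxd10 was at 12.9, 1.98 and 9.66 normalised CPM in the L345 libraries and 86.6, 55.2, 57.2 and 54.3 in the L6S1 libraries (log2 fold change 2.96 ± 0.54, adjusted p = 0.105). Hoxd9 was at 3.54, 3.33 and 3.41 normalised CPM in the L345 libraries and 9.19, 12.5, 24.1 and 14.9 in the L6S1 libraries (log2 fold change 2.14 ± 0.38, adjusted p = 0.0908). All 3 HoxD genes separated the levels in every library, and L6S1 A, the library nearest to L345 in most other genes, held the highest Hoxd10 value. L345 B held the lowest value of Hoxd11 and Hoxd10, at 0.540 and 1.98, below L345 A and C. Gm28309, on the same strand, shares 10.8% of the exon bases of Hoxd11 and 5.73% of those of Hoxd10.
Hotair, a long noncoding RNA transcribed from the HoxC cluster beside Hoxc11, was at 0, 0 and 0.190 normalised CPM in the L345 libraries and 3.503, 2.18, 3.35 and 1.45 in the L6S1 libraries (log2 fold change 5.13 ± 0.83, adjusted p = 0.0804). It was at 0 in L345 A and B, and its 4 counts in L345 C against 229 in the L6S1 libraries give a ratio of 35.99 with an exact 95% counting interval of 13.9 to 133. Like Hoxc11, Hotair passed the filter on low counts through its L6S1 libraries alone. Hoxc10, the next gene of that cluster, had 18.00, 13.2 and 15.02 against 29.8, 39.7, 29.3 and 30.7, a log2 fold change of 1.07, with no overlap.
The HoxA genes of the same groups did not separate the levels, nor did Hoxb9 and Hoxc9. Hoxa10 was at 55.6, 62.2 and 51.1 against 50.6, 49.01, 64.9 and 39.5 and Hoxa9 at 41.8, 50.5 and 43.9 against 40.03, 36.9, 54.9 and 38.9, with log2 fold changes of -0.14 and -0.09. Hoxb9 was at 3.32, 0.900 and 1.37 against 0.385, 1.16, 1.96 and 0.587 and Hoxc9 at 10.8, 8.19 and 7.06 against 4.61, 13.5, 10.8 and 4.84, with log2 fold changes of -0.87 and -0.04. The other 7 listed genes of groups 9 to 13, Hoxa11, Hoxa13, Hoxb13, Hoxc12, Hoxc13, Hoxd12 and Hoxd13, did not pass the filter, and none exceeded 0.391 CPM in any library.

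Among Hox groups 1 to 8, used further forward in the body, lower values were more common at L6S1. Of 23 listed genes 15 were tested and none was called. In 1 of 15 (6.67%) every L6S1 library lay above every L345 library, and in 5 (33.3%) every one lay below. Over all genes tested these shares were 8.6% and 10.2%. The median log2 fold change of the 15 was -0.56. The 5 that lay below were Hoxb4, Hoxb5, Hoxb7, Hoxc4 and Hoxc6.
Hoxb5 was at 29.7, 39.4 and 35.1 normalised CPM in the L345 libraries and 17.1, 29.03, 24.3 and 14.2 in the L6S1 libraries (log2 fold change -0.72 ± 0.32, adjusted p = 0.276). L6S1 A and F were the lowest, and D and E lay close to the lowest L345 library. Hoxb7, at 5.56, 4.77 and 4.41 against 0.256, 3.53, 3.296 and 1.002, was also lowest in A and F. Hoxc6 was at 1.37, 3.28 and 2.94 against 1.03, 1.06, 0.782 and 1.11, low in all 4 L6S1 libraries. Hoxa7 was at 40.4, 45.7 and 39.8 against 32.3, 66.3, 39.6 and 33.5, and the levels overlapped.

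**Figure D2:**
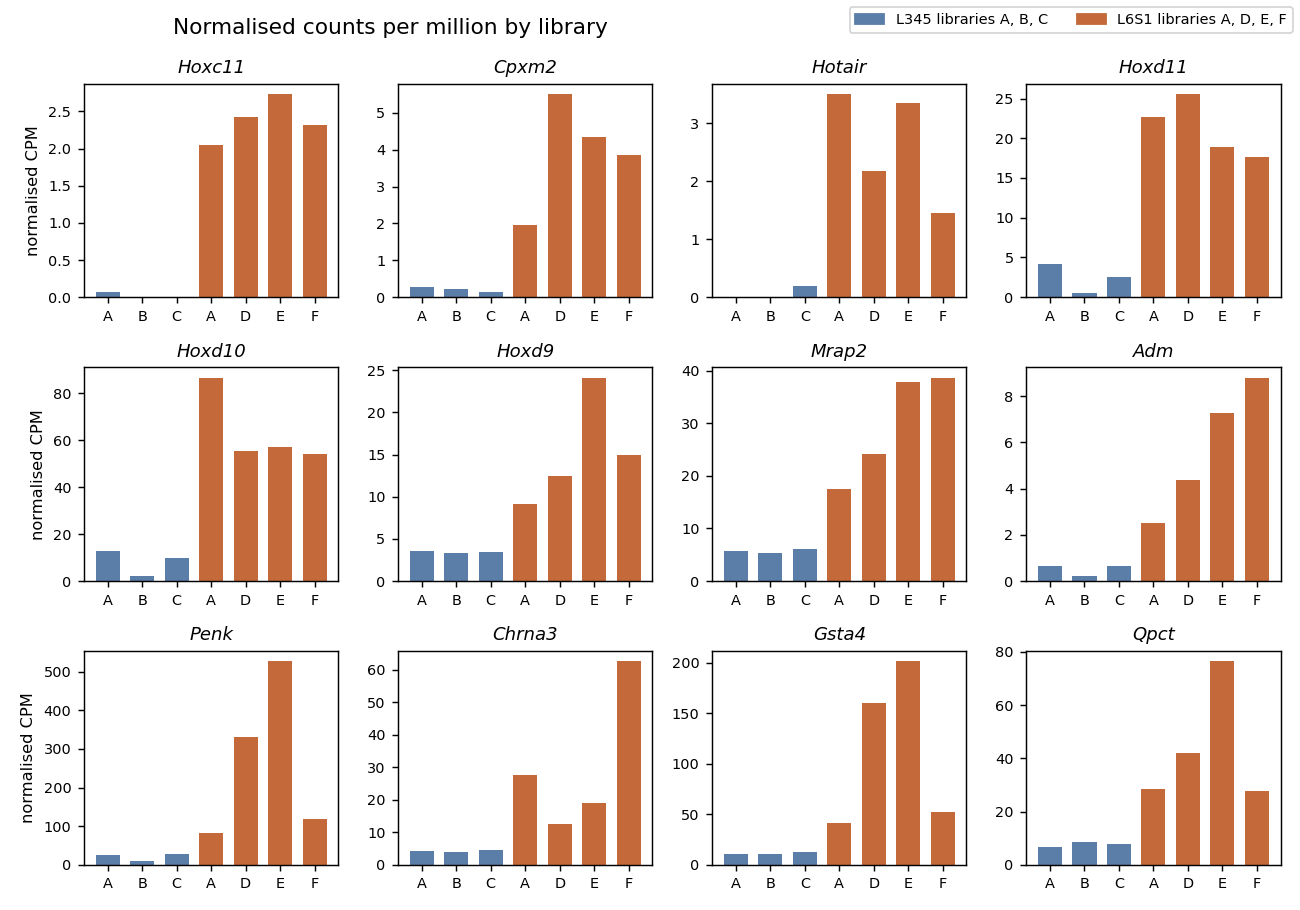
Normalised CPM (vertical axes, each from 0) in every library of 12 genes named in the text, with L345 A, B and C in blue and L6S1 A, D, E and F in orange. Every orange bar stands above every blue bar in all 12 panels. The L6S1 bars are level for Hoxc11 and uneven for Penk and Gsta4, whose D and E bars are the highest.

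Precursors of secreted peptides mostly had higher values at L6S1, more so in D and E than in A and F. Of 24 tested members of the neuropeptide list, none was called and 22 (91.7%) had a positive log2 fold change, beside 52.2% of all genes tested. In 10 of 24 (41.7%) every L6S1 library lay above every L345 library, and in 0 every one lay below. Over all genes tested these shares were 8.6% and 10.2%. The median log2 fold change of the list was 0.88 and 0.33 without D and E. Against the L345 mean, the list's median stood at 0.44, 1.44, 1.58 and 0.32 (log2) in L6S1 A, D, E and F. These are short genes, with a median length of 1372 bases beside 3630 over all genes tested, and with a length trend in the fit the median was 0.45.
Penk, the precursor of the enkephalins, was at 26.7, 10.4 and 27.3 normalised CPM in the L345 libraries and 83.2, 330.5, 526 and 119 in the L6S1 libraries (log2 fold change 3.62 ± 0.67, adjusted p = 0.105). Every L6S1 library exceeded every L345 library, and E held 6.33 times as much as A. Its log2 fold change was 2.25 without D and E. An opposite-strand gene, A830012C17Rik, shares 14.3% of its exon bases.
Adm, the precursor of the vasodilator adrenomedullin, was at 0.650, 0.225 and 0.663 normalised CPM in the L345 libraries and 2.52, 4.35, 7.26 and 8.81 in the L6S1 libraries (log2 fold change 3.498 ± 0.57, adjusted p = 0.0804). Here F was the highest library, and the log2 fold change without D and E was 3.505. Gal, the precursor of galanin, was at 174, 232 and 182 normalised CPM in the L345 libraries and 356, 1455, 1446 and 666 in the L6S1 libraries (log2 fold change 2.32 ± 0.49, adjusted p = 0.174). D and E stood about level and above F, and A was the lowest of the L6S1 libraries. Cartpt, the precursor of the CART peptides, was at 38.4, 45.5 and 49.8 normalised CPM in the L345 libraries and 86.05, 232, 372 and 153 in the L6S1 libraries (log2 fold change 2.24 ± 0.47, adjusted p = 0.174). Its lowest L6S1 library, A, was 1.73 times the highest L345 library.
Calca, which encodes calcitonin gene-related peptide and marks peptidergic nociceptors, was at 4948, 5502 and 4829 normalised CPM in the L345 libraries and 6035, 14633, 16274 and 6374 in the L6S1 libraries (log2 fold change 1.09 ± 0.42, adjusted p = 0.274). L6S1 A and F lay just above the L345 libraries and D and E far above, and without D and E the log2 fold change was 0.30. Of 20 tested members of the peptidergic nociceptor list 11 (55%) had a positive log2 fold change, near the 52.2% of all genes tested. The list's median was 0.24 and ran from -0.02 to 0.43 over the alternatives. In 5 (25%) every L6S1 library lay above every L345 library and in 2 (10%) every one lay below, beside 8.6% and 10.2% of all genes tested. The list's member of smallest p, Prokr2, was lower at L6S1 (log2 fold change -1.43 ± 0.39, adjusted p = 0.274 by edgeR). Tac1, the precursor of substance P, had 1694, 2292 and 1857 against 3319, 7303, 10627 and 2374, with F nearest to L345. Uts2b, which encodes a urotensin-related peptide, had 2.02, 0.540 and 0.284 against 7.65, 1.74, 22.96 and 18.4, and L6S1 D overlapped L345.

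Receptors and channels with higher values at L6S1 included subunits of nicotinic acetylcholine receptors. Chrna3, the alpha subunit typical of autonomic ganglia, was at 4.41, 3.96 and 4.69 normalised CPM in the L345 libraries and 27.8, 12.7, 18.9 and 62.6 in the L6S1 libraries (log2 fold change 2.81 ± 0.52, adjusted p = 0.105). Chrnb4, a beta subunit that assembles with it, was at 5.78, 10.2 and 8.86 normalised CPM in the L345 libraries and 20.6, 19.6, 15.8 and 54.7 in the L6S1 libraries (log2 fold change 1.74 ± 0.46, adjusted p = 0.274). Both separated the levels, and F was the highest library for each, with D and E below A.
Over the whole list of nicotinic and muscarinic receptors, 3 of 12 tested members (25%) had every L6S1 library above every L345 library. In 1 (8.33%) every one lay below, and over all genes tested these shares were 8.6% and 10.2%. The median log2 fold change of the list was -0.16. Without D and E that median was 0.17, so its sign changed with those 2 libraries. Htr3a, a subunit of the serotonin-gated cation channel, was at 29.8, 35.04 and 36.8 normalised CPM in the L345 libraries and 53.4, 81.00, 111 and 142 in the L6S1 libraries (log2 fold change 1.51 ± 0.37, adjusted p = 0.274). Mrap2, an accessory protein of melanocortin receptors, was at 5.71, 5.35 and 6.11 normalised CPM in the L345 libraries and 17.6, 24.1, 37.9 and 38.7 in the L6S1 libraries (log2 fold change 2.37 ± 0.37, adjusted p = 0.0804). Its L345 libraries were nearly equal, and L6S1 A, the lowest, was 2.87 times the highest of them.
Crhr2, a receptor of the corticotropin-releasing hormone family, was at 1.08, 2.16 and 2.27 against 3.76, 6.97, 9.05 and 8.77 (log2 fold change 1.94 ± 0.42, adjusted p = 0.196). Kcnj9, a subunit of G protein-gated potassium channels, was at 0, 0.180 and 0.142 against 0.598, 0.919, 2.12 and 2.52, and its 7 L345 counts against 144 give a ratio of 12.9 with a counting interval of 6.12 to 32.7. Kcnj9 passed the filter on low counts through its L6S1 libraries alone. Esr1, the estrogen receptor alpha, was at 16.6, 7.29 and 9.05 against 18.2, 20.4, 12.2 and 29.3, and L6S1 E and L345 A overlapped (log2 fold change 0.87 ± 0.39, adjusted p = 0.276).

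Several enzymes were among the higher genes. Qpct, which forms pyroglutamate at the start of peptides, was at 6.58, 8.41 and 7.86 normalised CPM in the L345 libraries and 28.4, 42.05, 76.4 and 27.8 in the L6S1 libraries (log2 fold change 2.51 ± 0.42, adjusted p = 0.0804). L6S1 A and F were close to each other, and D and E were higher. Upp1, a uridine phosphorylase, was at 3.76, 3.69 and 3.93 against 10.3, 20.9, 24.5 and 14.7 (log2 fold change 2.21 ± 0.37, adjusted p = 0.0804). Gsta4, a glutathione transferase that clears products of lipid peroxidation, was at 10.5, 10.7 and 12.98 normalised CPM in the L345 libraries and 41.7, 160.1, 201 and 52.3 in the L6S1 libraries (log2 fold change 3.32 ± 0.57, adjusted p = 0.0804). Over the L345 mean, A stood at 3.66-fold, D at 14.1, E at 17.7 and F at 4.597, and the log2 fold change without D and E was 2.06. Srd5a2, a steroid reductase that makes dihydrotestosterone, was at 1.16, 0.0900 and 0.426 against 3.204, 11.2, 10.2 and 3.799 (log2 fold change 3.75 ± 0.73, adjusted p = 0.109), with every L6S1 library above L345.
The remaining genes of lowest p encode secreted, structural and immune proteins. Serpina3c, a serine protease inhibitor, was at 1.73, 2.34 and 3.41 against 9.78, 11.8, 23.96 and 11.4 (log2 fold change 2.498 ± 0.42, adjusted p = 0.0804). Timp1, an inhibitor of metalloproteinases, was at 0.578, 0.720 and 0.995 against 3.55, 3.82, 6.42 and 3.28 (log2 fold change 2.45 ± 0.43, adjusted p = 0.0822). Trac, the constant segment of the T cell receptor alpha chain, was at 0.434, 0.450 and 1.09 against 4.66, 4.596, 3.58 and 4.84 and was even across the L6S1 libraries (log2 fold change 2.72 ± 0.44, adjusted p = 0.0804). Krt15, a keratin, was at 0.0723, 0 and 0 against 0.513, 2.47, 1.84 and 0.967, and its single L345 count against 124 gives a ratio of 77.95 with an interval of 13.7 to 3103. Krt15 too passed the filter on low counts through its L6S1 libraries alone. L6S1 A held the least Krt15 of the L6S1 libraries.

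A stricter view asked which genes stood at least 2-fold from the L345 mean in each of the 4 L6S1 libraries, among 11880 genes whose log2 CPM averaged 1 or more. There were 40 higher and 7 lower, against 3243 and 3749 that did so in any L6S1 library. Besides genes described above, the 40 held several that are named here after their values were seen.
Scgn, a calcium-binding protein of secretory cells, had 2.096, 2.61 and 1.61 against 6.15, 10.4, 21.4 and 8.57 (log2 fold change 2.46). Angpt4, an angiopoietin, had 1.08, 1.53 and 1.18 against 3.503, 23.1, 23.6 and 5.87 (3.45), with D and E above 23. Cbln1, a secreted synapse organiser, had 0.434, 1.12 and 0.521 against 1.58, 4.31, 5.14 and 3.696 (2.37). Negr1 and Ntm, adhesion molecules of the same family on neurons, had 10.2, 6.88 and 9.48 against 21.2, 21.2, 18.9 and 23.6 and 19.4, 9.85 and 7.96 against 30.98, 48.8, 32.6 and 35.2. The L6S1 values of Negr1 lay within 1.25-fold of each other. Irx6, a homeobox transcription factor, had 0.217, 0.540 and 1.09 against 1.37, 3.44, 2.79 and 4.73 (2.27). None of these passed the test.

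No gene fell at an adjusted p under 0.05, and the 15 lower genes of smallest p all had adjusted p from 0.196 to 0.274. Cdr1, a locus known for a circular RNA, was at 41.6, 12.6 and 14.8 normalised CPM in the L345 libraries and 7.86, 6.19, 5.87 and 5.46 in the L6S1 libraries (log2 fold change -1.86 ± 0.41, adjusted p = 0.196). L345 A stood apart at 41.6, and the L6S1 libraries lay within 1.44-fold of each other. All of its exon bases (100%) overlap C230004F18Rik on the opposite strand. Whether counting kept reads of the 2 genes apart is not given in the sources used here.
Ugt8a, which makes the myelin lipid galactosylceramide, was at 9.83, 1.304 and 6.92 normalised CPM in the L345 libraries and 1.41, 1.06, 0.559 and 1.002 in the L6S1 libraries (log2 fold change -2.55 ± 0.57, adjusted p = 0.209). L345 B, at 1.30, lay below L6S1 A, so the levels overlapped. Gabrg1, a subunit of the GABA-A receptor, was at 12.4, 2.65 and 5.45 normalised CPM in the L345 libraries and 1.32, 0.581, 1.34 and 2.11 in the L6S1 libraries (log2 fold change -2.33 ± 0.53, adjusted p = 0.237). Slc1a3, a glutamate transporter of satellite glia, was at 7.01, 7.78 and 6.11 normalised CPM in the L345 libraries and 2.69, 3.53, 2.01 and 3.35 in the L6S1 libraries (log2 fold change -1.26 ± 0.33, adjusted p = 0.274). The L345 libraries were themselves uneven for Ugt8a and Gabrg1, with A the highest, and close to one another for Slc1a3, whose L6S1 values all lay below them.
Nfib, a transcription factor, was at 52.8, 36.3 and 32.5 normalised CPM in the L345 libraries and 19.7, 13.1, 7.26 and 15.8 in the L6S1 libraries (log2 fold change -1.53 ± 0.36, adjusted p = 0.260), and Qk, an RNA-binding protein needed for myelination, at 71.3, 38.95 and 44.1 normalised CPM in the L345 libraries and 28.5, 16.4, 16.3 and 13.8 in the L6S1 libraries (log2 fold change -1.46 ± 0.35, adjusted p = 0.274). Both are long genes, at 14957 and 9879 bases, and E or F was the lowest library. Sema5a, an axon guidance molecule, was at 5.13, 1.89 and 5.59 against 1.37, 0.774, 0.838 and 1.66, Cntn3, a neuronal adhesion molecule, at 15.8, 9.81 and 12.6 against 7.73, 4.26, 4.25 and 4.87, and Vwc2l, a secreted protein, at 3.903, 3.01 and 3.17 against 1.28, 1.11, 0.447 and 1.14. In all 3 the L6S1 libraries lay below the L345 libraries. Slc12a2, the chloride importer of sensory neurons, was at 90.5, 77.4 and 77.98 normalised CPM in the L345 libraries and 50.6, 34.4, 30.6 and 32.3 in the L6S1 libraries (log2 fold change -1.15 ± 0.30, adjusted p = 0.274). The others were Gas2l3, Tmem245, Padi2, Lypd1 and ENSMUSG00000100370, with log2 fold changes of -1.52, -1.302, -2.33, -1.796 and -1.34.

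The L6S1 libraries did not resemble one another. L6S1 A had 1.145% of 11880 genes at least 2-fold from the L345 mean, F 12.69%, D 28.89% and E 47.51%. L345 A, B and C, each set against the mean of the other L345 libraries, had 7.205%, 1.532% and 1.338%. L6S1 A thus had a share as low as those of the L345 libraries, whose reference held fewer libraries. Its median absolute log2 difference from L345 B was 0.169, beside 0.862 from L6S1 E. The first principal component, 56.32% of the variance, placed L345 A, B and C at −50.69, −39.73 and −39.07, L6S1 A at −30.07, F at −2.573, D at 57.05 and E at 105.1.
The genes 2-fold from L345 were mostly shared by D and E or seen in 1 library. D and E but neither A nor F shared 1155 higher and 1028 lower genes, E alone held 1011 and 1560, and D alone 384 and 288. A and F but neither D nor E shared 11 higher and 6 lower genes. Among these 11 were Kcnk2, a leak potassium channel, at 14.2, 14.1 and 13.98 against 32.00, 20.4, 12.1 and 61.6, and Pappa, a protease, at 1.301, 0.585 and 1.66 against 4.53, 0.629, 0.838 and 5.11, and Hoxb5 and Hoxb7 were among the 6. These genes are named after their values were seen.

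**Figure D3:**
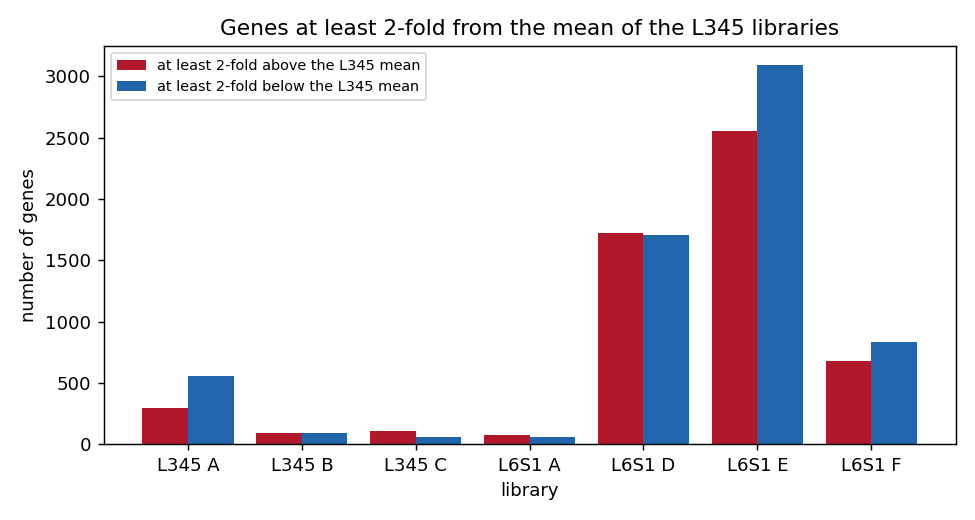
Number of genes, of 11880, at least 2-fold above (red) or below (blue) the mean of the L345 libraries in each library. For an L345 library the mean is that of the other L345 libraries. L6S1 A had 77 above and 59 below, and L6S1 E had 2551 above and 3093 below.

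Gene length moved with these differences. In L6S1 D and E short genes were higher and long genes lower than in L345. The median log2 difference from the L345 mean in the shortest quintile of genes, 57 to 1869 bases, was 0.97 in D and 1.11 in E, beside 0.09 in A and 0.11 in F. In the longest quintile, 6338 to 116825 bases, it was −0.54 in D, −0.92 in E, −0.15 in A and −0.38 in F. Over the 5 quintiles the fitted median log2 fold change ran 0.69, 0.32, −0.02, −0.18 and −0.48. With this trend as an offset in the fit, the same 2 genes were called, and 1885 genes had unadjusted p under 0.05.
Library composition differed too. The 10 genes with the most counts took 13.61% of the counts of E and 9.832% of those of D, beside 6.319% to 8.245% in the other 5. Gm42418, a gene model that overlaps ribosomal RNA sequence, was at 3515, 17404 and 20745 against 6730.3, 4558, 57868 and 13103, highest in E. In D and E the protein-coding genes with the largest shares of the counts were Sncg, a synuclein, at 5148, 5084 and 5429 against 5550.0, 18114, 17698 and 7757, and Calca. In the L345 libraries and L6S1 A it was Dpysl2, a microtubule-binding protein of axons, at 9077, 8906 and 8676 against 8059, 2246, 742 and 7618. The part of library composition and gene length in the level differences was not tested beyond the offset.

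**Figure D4:**
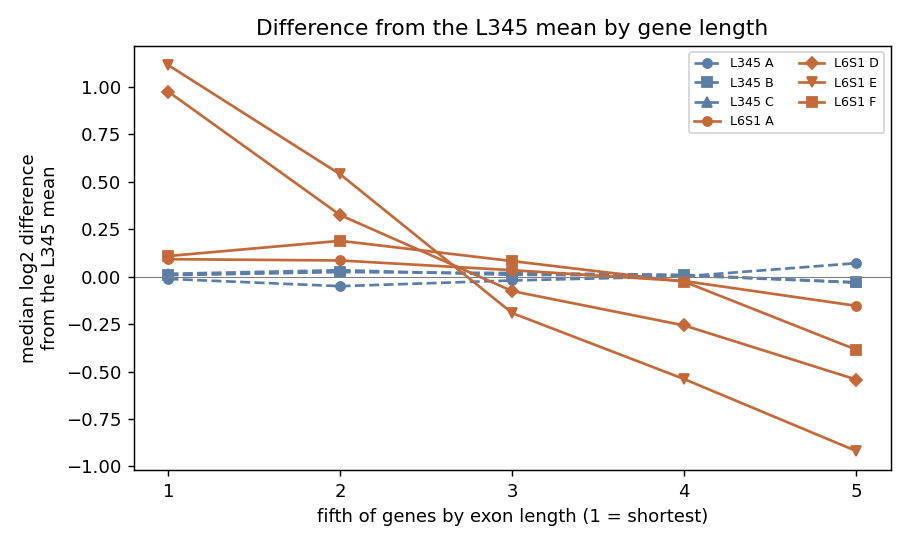
Median log2 difference from the L345 mean (vertical axis) in each quintile of the genes tested by exon length (horizontal axis, 1 the shortest), per library. L345 libraries are dashed blue lines and L6S1 libraries solid orange lines. L6S1 D and E slope from 0.97 and 1.11 to −0.54 and −0.92, and the others stay between −0.38 and 0.19.

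Genes of energy metabolism and protein synthesis showed the split between libraries most plainly. Nuclear genes of oxidative phosphorylation had a median log2 fold change of 1.001 over 78 tested members, and none was called. Of these, 77 (98.7%) were positive, beside 52.2% of all genes tested. In 16 (20.5%) every L6S1 library lay above every L345 library, and in 0 every one lay below. Over all genes tested these shares were 8.6% and 10.2%. The list's per-library medians against the L345 mean were 0.02, 1.73, 1.33 and 0.25 in L6S1 A, D, E and F, with D and E the highest. Without D and E the median was 0.15. Cytosolic ribosomal proteins followed the same order, with a median of 0.99 over 77 members, per-library medians of 0.12, 1.63, 1.401 and 0.13, and 0.09 without D and E. Both lists hold short genes, with median lengths of 1304.5 and 1464 bases, and with the length offset their medians were 0.41 and 0.40. Ribosomal protein genes have near-identical processed copies, so their counts are uncertain. The glutathione transferase and xenobiotic enzyme list, to which Gsta4 belongs, had a median of 0.87 and 0.10 without D and E.
Genes encoded in mitochondria gave no common direction. Their 7 tested members had a median of 0.01, and the medians per library were -0.25, 0.82, 0.57 and -0.98. mt-Nd1, a subunit of complex I, was at 2715, 1491 and 1517 against 1890.2, 4302, 4163 and 1016, highest in D and E and lowest in F.

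**Figure D5:**
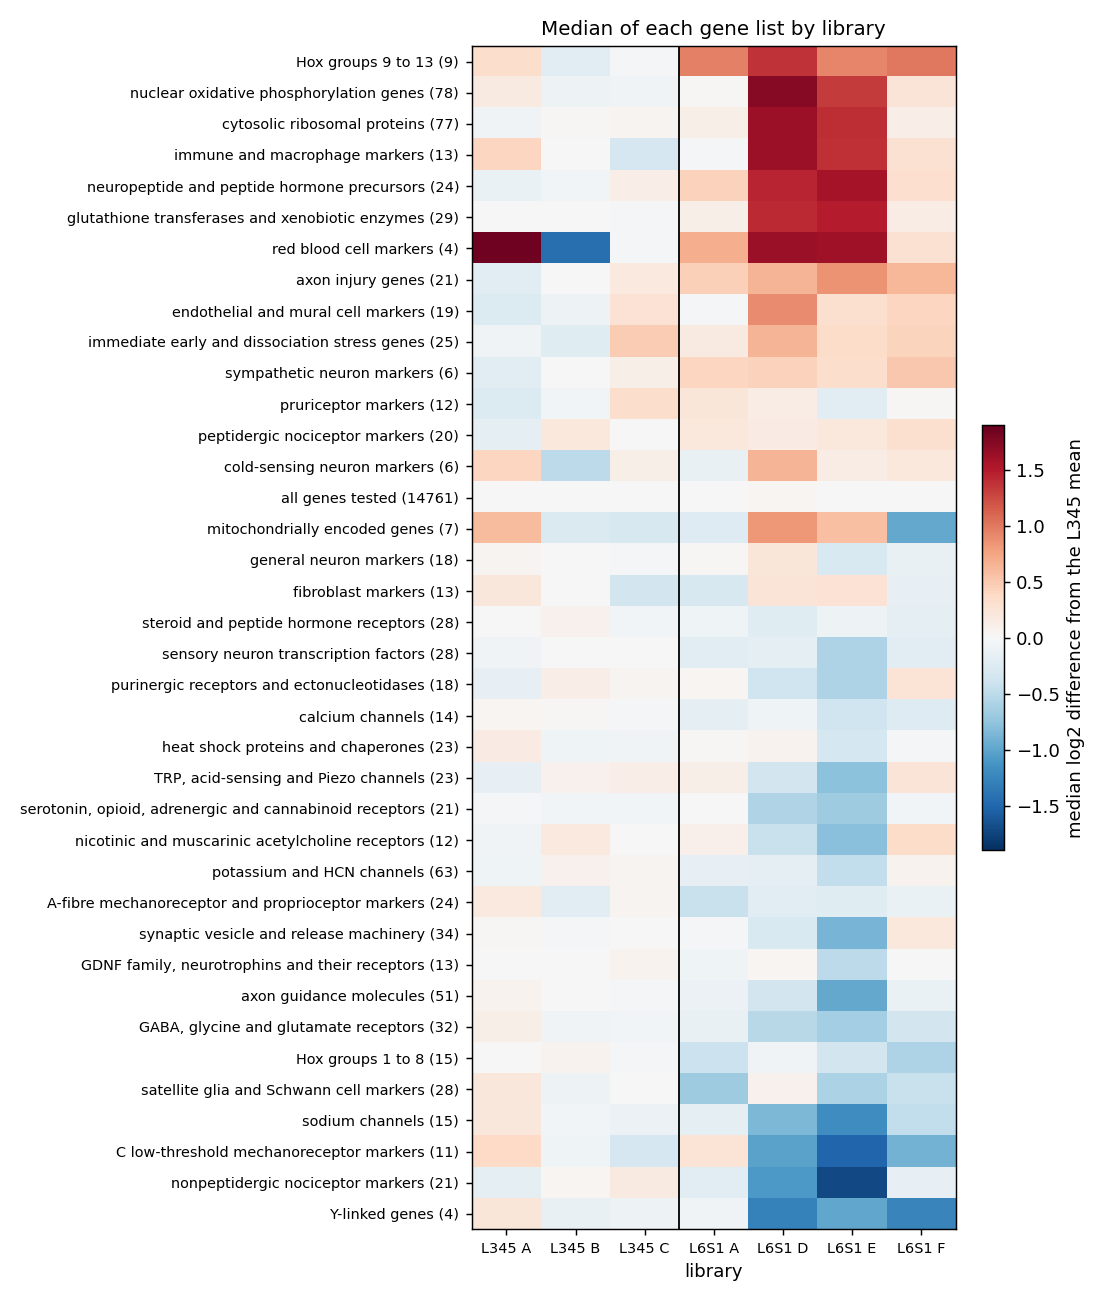
Median log2 difference from the L345 mean (colour) of each gene list with at least 4 tested members (rows, number tested in brackets) in each library (columns). Rows run from the highest fitted median log2 fold change at the top to the lowest. Hox groups 9 to 13 are red in all 4 L6S1 libraries, at 0.96, 1.37, 0.93 and 1.00, and most other lists are coloured mainly in D and E.

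Genes that respond to axon injury had a positive median in all 4 L6S1 libraries. In that list 8 of 21 tested members (38.1%) had every L6S1 library above every L345 library and 1 (4.76%) had every one below. Over all genes tested these shares were 8.6% and 10.2%. None of the list was called. The list's median was 0.63, with 0.46, 0.64, 0.85 and 0.63 in L6S1 A, D, E and F and 0.57 without D and E. Its tested members are short, with a median length of 1916 bases beside 3630 over all genes tested. With the length offset the median was 0.39, the lowest of the alternatives. Atf3, the transcription factor most used as an injury marker, was at 60.6, 41.8 and 87.9 normalised CPM in the L345 libraries and 113, 108, 140.2 and 125 in the L6S1 libraries (log2 fold change 0.94 ± 0.34, adjusted p = 0.274). Its L6S1 values were close together and above L345 C, the highest control. Gap43, a growth cone protein, was at 295, 332 and 304 against 376, 778, 1009.6 and 480.0 (log2 fold change 1.09 ± 0.38, adjusted p = 0.274), with D and E highest. Sox11, also on the list, went the other way in D and E, at 113, 83.98 and 105 against 122, 34.3, 16.8 and 62.5.
Immediate early and dissociation stress genes, which rise during tissue dissociation, had a median of 0.55. In 3 of 25 tested members (12%) every L6S1 library lay above every L345 library, near the 8.6% of all genes tested. In 0 every one lay below, beside 10.2% of all genes tested. Fos was at 201, 151 and 306 against 272, 464, 287 and 281, and the levels overlapped. Gadd45g, a stress-response gene, was at 41.9, 45.97 and 59.7 against 71.5, 135, 257 and 138 (log2 fold change 1.61 ± 0.42, adjusted p = 0.274), without overlap. L345 C stood at 0.48 on this list and L345 B at -0.23, a spread among the control pools as wide as that between levels.

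The sorted cells carried the markers of DRG neurons at both levels. The 18 general neuron markers summed to 16445 to 17079 normalised CPM in the L345 libraries and 18425 to 25457 in the L6S1 libraries, with a median log2 fold change of -0.07. In bulk RNA, fewer cells of a type and less RNA of that type per cell cannot be told apart, for the classes of neurons and for the other cells below.
Markers of nonpeptidergic nociceptors, a main class of Ret cells, were lowest in L6S1 D and E. In that list 0 of 21 tested members had every L6S1 library above every L345 library and 6 (28.6%) had every one below. Over all genes tested these shares were 8.6% and 10.2%. None of the list was called, and its median was -0.66. Per library the medians were -0.22, -1.09, -1.71 and -0.16, and without D and E the list stood at -0.21. Mrgprd, the receptor that defines the class, was at 463, 577 and 603 normalised CPM in the L345 libraries and 479, 246, 85.97 and 496 in the L6S1 libraries (log2 fold change -0.74 ± 0.49, adjusted p = 0.381). A and F lay among the L345 values, and D and E at 44.98% and 15.7% of their mean. Gfra2, the co-receptor of these cells, was at 269.8, 331 and 311 against 322, 136, 61.2 and 288, again lowest in D and E. Agtr1a, an angiotensin receptor, was low in all 4 L6S1 libraries, at 33.8, 41.1 and 45.7 against 27.1, 24.3, 13.96 and 22.8.
C low-threshold mechanoreceptor markers gave medians of 0.26, -1.02, -1.51 and -0.90 in L6S1 A, D, E and F. Its members differed in direction. Th, the tyrosine hydroxylase that defines these cells, was at 682, 646 and 607 normalised CPM in the L345 libraries and 1032, 858, 811 and 701 in the L6S1 libraries (log2 fold change 0.40 ± 0.31, adjusted p = 0.449), above L345 in every L6S1 library. Slc17a8, their vesicular glutamate transporter, was at 30.7, 22.7 and 18.95 against 23.4, 14.2, 7.99 and 5.39, and Piezo2, the touch channel, at 306, 275 and 260.5 normalised CPM in the L345 libraries and 184, 123.2, 73.1 and 131 in the L6S1 libraries (log2 fold change -1.13 ± 0.35, adjusted p = 0.274), below L345 in all 4. Piezo2 is 14566 bases long.
Nefh, a neurofilament of A-fibre neurons, was at 78.1, 65.99 and 86.9 against 50.8, 78.3, 56.1 and 107, with no difference beyond the spread (log2 fold change -0.07 ± 0.34, adjusted p = 0.914). Of the Ret co-receptors besides Gfra2, Gfra3 was at 169.6, 268 and 242 normalised CPM in the L345 libraries and 335, 413, 363 and 505 in the L6S1 libraries (log2 fold change 0.84 ± 0.33, adjusted p = 0.274), above L345 throughout, and Gfra1 at 57.4, 71.7 and 91.1 against 50.8, 23.5, 32.7 and 66.6, with overlap. Trpm8, the cold receptor, was at 8.53, 6.57 and 11.2 against 7.605, 8.85, 8.94 and 13.7, with a log2 fold change of 0.16. Bdnf, a neurotrophin, was at 75.7, 72.5 and 78.98 normalised CPM in the L345 libraries and 144, 142, 171 and 103 in the L6S1 libraries (log2 fold change 0.88 ± 0.31, adjusted p = 0.274), about evenly higher in A, D and E. Sodium channel genes, which are long, had a median of -0.64 and per-library medians of -0.17, -0.85, -1.18 and -0.47. Axon guidance molecules had a median of -0.38, which with the length offset was -0.01.
Per length, Calca was at 3441 RPKM of normalised values in L345 and 7317 in L6S1, beside 272.8 and 359.7 for Th, 175.7 and 104.8 for Mrgprd and 26.6 and 21.8 for Ret. The order of these 4 was the same at both levels.

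Immune markers were highest in L6S1 D and E, and markers of other cell types did not share one pattern. The 24 immune and macrophage markers summed to 17.7 to 32.6 normalised CPM in the L345 libraries and 23.8 to 70.1 in the L6S1 libraries. The highest sums were 60.7 in D and 70.1 in E, and A and F lay within or beside the control range at 23.8 and 31.8. The 13 tested are short genes, with a median length of 1410 bases beside 3630 over all genes tested. Their median log2 fold change was 0.98, but 0.45 with the length offset and 0.27 without D and E. In 2 of 13 (15.4%) every L6S1 library lay above every L345 library, and in 0 every one lay below. For all genes tested the shares were 8.6% and 10.2%. C1qb, a complement subunit of macrophages, was at 1.52, 0.945 and 0.711 normalised CPM in the L345 libraries and 2.61, 7.21, 10.2 and 6.53 in the L6S1 libraries (log2 fold change 2.67 ± 0.50, adjusted p = 0.105), above L345 in all 4, and H2-Eb1, an antigen-presenting molecule, at 2.89, 2.699 and 2.65 against 3.204, 9.43, 6.42 and 5.04. Endothelial markers had a median of 0.57 and per-library medians of -0.02, 0.90, 0.31 and 0.41, and they summed to 315 to 490.0 normalised CPM in the L345 libraries and 253 to 437 in the L6S1 libraries. Ly6a, also known as Sca-1, was at 7.08, 7.29 and 9.52 normalised CPM in the L345 libraries and 28.6, 51.4, 92.8 and 21.00 in the L6S1 libraries (log2 fold change 2.602 ± 0.50, adjusted p = 0.105), above L345 throughout.
Satellite glia and Schwann cell markers summed to 4334 to 5085 normalised CPM in the L345 libraries and 4019 to 9847 in the L6S1 libraries, and the high end was E, through Apoe. Apoe, a lipid carrier abundant in satellite glia, was at 586, 852 and 756 normalised CPM in the L345 libraries and 662, 926, 4761 and 1272 in the L6S1 libraries (log2 fold change 1.38 ± 0.60, adjusted p = 0.276). By contrast the list's median was -0.61, with -0.68, 0.08, -0.60 and -0.42 in L6S1 A, D, E and F, so the sum and the median differed in direction. Mbp, a myelin protein, was at 253, 138 and 215 against 96.3, 148, 98.3 and 102. Fabp7, a satellite glia marker, was at 250.3, 168 and 113 against 150.2, 563, 579 and 132, highest in D and E. Acta1, of skeletal muscle, was at 2.31, 2.204 and 1.61 against 3.33, 11.2, 7.04 and 4.21, and the 4 tested red blood cell markers were uneven in the controls, at 1.85 in L345 A and -1.43 in B.
Sympathetic neurons, which share Chrna3, Chrnb4 and Th with the genes above, could lie near these ganglia. Of 16 listed markers of these neurons 6 were tested, and none was called. In 3 of 6 (50%) every L6S1 library lay above every L345 library, and in 0 every one lay below. Over all genes tested these shares were 8.6% and 10.2%. The 3 were Th, Chrna3 and Chrnb4 themselves, already described, so this share is no separate result on sympathetic markers. The median log2 fold change of the list was 0.40. The list summed to 807 to 866 normalised CPM in the L345 libraries and 1019.9 to 1239 in the L6S1 libraries, most of it Th. Slc6a2, Phox2a and Hand2, defining genes of the list, were at 0 in all 7 libraries. The part of the other cell types in the level differences was not tested.
Y-linked genes differed between the L6S1 libraries. The 4 tested summed to 122 to 165 normalised CPM in the L345 libraries and 54.2 to 129.7 in the L6S1 libraries, where A stood at 129.7 and D, E and F at 72.2, 75.0 and 54.2. They are long genes, with a median length of 7495 bases beside 3630 over all genes tested. Their median log2 fold change was -0.83, and -0.30 with the length offset. Ddx3y, a helicase, was at 84.99, 53.7 and 52.8 normalised CPM in the L345 libraries and 58.7, 21.2, 18.8 and 21.1 in the L6S1 libraries (log2 fold change -1.09 ± 0.42, adjusted p = 0.274), Uty, a demethylase, at 29.9, 24.5 and 28.6 against 25.6, 7.26, 12.1 and 10.7, and Eif2s3y, a translation factor, at 39.97, 35.4 and 39.5 against 36.8, 39.6, 39.3 and 18.8. L6S1 D, E and F lay at or below 40.2% of the lowest L345 library for Ddx3y and 49.3% for Uty, while for Eif2s3y D and E were within the L345 range. These pools are all labelled male, and the part of this difference in the others was not tested.

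The last question was whether the L6S1 effect in males differed from that in females, for which all 13 libraries were fitted together with 1 mean per level and sex. No gene was called (0 of 15406, 0%), by edgeR or by DESeq2, and 1805 genes had unadjusted p under 0.05. The lowest adjusted p was 0.409. A fit that blocked on the letters over both sexes called 31 genes, but there L6S1 D, E and F each take a term of their own, so they drop out and L6S1 A alone stands for that group of males. In the same 13-library fit the log2 fold change of Hoxc11 was 4.49 in females and 6.65 in males, and that of Cpxm2 was 2.28 in females and 4.16 in males. The differences of 2.16 ± 1.04 and 1.87 ± 0.64 (SE) did not pass. For Hoxd10 it was 2.91 in females and 2.96 in males (difference 0.05 ± 0.64) and for Chrna3 3.86 in females and 2.83 in males (difference -1.04 ± 0.69).
The 5 genes of smallest p were Ly6a, Pls1, Fabp4, Ly6e and Sema3d. Ly6a had a log2 fold change of -0.23 in females and 2.598 in males, Fabp4, a fatty acid carrier, of -1.51 in females and 1.89 in males, and Ly6e, a membrane protein of the family of Ly6a, of -0.48 in females and 1.904 in males. Pls1, an actin bundler, had 2.15 in females and -0.21 in males, and Sema3d, a guidance ligand, 2.62 in females and -0.67 in males. The first 3 were higher at L6S1 in males and lower in females, and the other two the reverse. None of the 5 passed the adjustment without the block, and with it Ly6a and Pls1 did (adjusted p = 0.0169 and 0.0190 by edgeR). Gal had 0.29 in females and 2.31 in males and Penk 1.61 in females and 3.62 in males, with differences of 2.02 ± 0.58 and 2.01 ± 0.78. These 2 are genes whose male values were highest in L6S1 D and E.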

How the data were processed

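Cells sorted from male Ret-EGFP ganglia were sequenced as 7 pooled libraries (4 L6S1, 3 L345), grouped by their titles. Per the labels' protocols, libraries came from a SMARTer Ultra Low Input kit and an Illumina HiSeq instrument. The tools in the submitters' processing notes, listed with no role, are featureCounts 1.4.5, Subread, Salmon and STAR 2.0.4b, and the builds mm10 and GRCm38.p2. How strand and reads matching several genes were treated is not given in these sources. Every test started from the deposited counts, whole numbers per gene without normalization. Recomputation showed that the authors made CPM from each library's own total and divided it by gene length in kilobases for the deposited RPKM. Both were only checked, with largest relative deviations of 5.11e-15 and 5.21e-14. Of 41388 gene IDs, 40340 matched a GENCODE M21 name, and the others hold 0.0828% of the counts.

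Genes passing filterByExpr (14761) were scaled by TMM (factors 0.835 in L6S1 E, 0.902 in D and 1.05 to 1.07 in the others) and tested in R 4.3.3 with edgeR 4.0.16 (quasi-likelihood F-test, robust). The residual degrees of freedom were 5. Adjustment was Benjamini-Hochberg over all genes tested, and calls needed an adjusted p under 0.05. Fold changes carry a standard error. The difference between sexes was a contrast on all 13 libraries (15406 genes). Deviations from the group means correlated above 0.1 in 4 of 4 pairs of libraries of 1 sex with the same letter (0.128 to 0.592). Across sexes they did so in 7 of 8 such pairs (−0.129 to 0.625). Among males the only such pair, L6S1 A with L345 A, was at 0.128. Male pairs of different letters ran from −0.35 (L6S1 F with L345 A) to 0.275 (L6S1 F with L345 C), a range that holds 0.128. The labels do not say what a letter marks. Medians per library used log2 CPM with a prior count of 2. Alternatives used limma 3.58.1, DESeq2 1.42.0, other scaling factors, no filter, a gene length offset and libraries left out. The code was checked on simulated counts.

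The members and lists were chosen with earlier results of these data known. Named genes are the 15 of smallest p in each direction (fewer than 10 were called), the called genes, the member of smallest p of each of 39 lists, 26 fixed genes, Xist besides, and the 5 of smallest p between sexes. Genes outside this rule come from the fixed lists or were named after their values were seen.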

Additional observations from a re-analysis of the deposited data

Results flagged for a closer look

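Among the 75 named genes, 8 had 1 of the 4 L6S1 libraries far from the other 3, as a gap that is large against the range of the group. For 4 independent, normally distributed values, chance gives about 1 such case in 20 groups. The named genes were chosen on these data and share the same libraries, so that rate gives no expected number for them. In L6S1 A, the library nearest to L345, the value was the highest for 5 of them. Hoxd10 was at 86.6 CPM in A and 54.3 to 57.2 in the others. Gas2l3 was at 9.31 in A and 4.08 to 4.94 in the others. Scn2a was at 15.1 in A and 7.98 to 9.19 in the others. Ddx3y was at 58.7 in A and 18.8 to 21.2 in the others. Cacna2d1 was at 190.0 in A and 116.2 to 127.5 in the others. In E, Serpina3c stood at 24.0 against 9.78 to 11.8, and Apoe at 4761 against 661.6 to 1272. In F, Chrnb4 stood at 54.7 against 15.8 to 20.6.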

How the results depend on the processing

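In males, 2 genes were called. RLE or upper-quartile factors and the length offset called the same 2. No filter on low counts gave 90 (76 higher, 14 lower), DESeq2, also without that filter, 116, limma voom 1, voom with library quality weights 65 (62 higher, 3 lower) and a fit on all 13 libraries 34, all higher. With L6S1 D and E both left out, or E and F, edgeR gave 0 calls, with 1256 and 1277 genes at unadjusted p under 0.05. Leaving out 1 library each gave 0 to 62. The cause of these shifts was not tested. The 15 higher and 15 lower genes of smallest p kept their sign in all 17 alternatives, and 25 of these 30 were called in at least 1. These 30 were picked by p from the same counts that the alternatives refit, so their kept signs are no independent check. No paired analysis was possible because the male groups share only the letter A. In the contrast between sexes, where females have letters in common, the replicate block, which leaves L6S1 D, E and F out of the estimate, gave 31 calls (29 higher, 2 lower) against 0 without it, and no low-count filter gave 1, Ly6a. Leaving out 1 library each gave 0 throughout.

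Signs turned for 5 named genes. With D and E out, Gfra2 was at 0.0162 (from -0.59), Ret at 0.0380, Nefh at 0.0515 and mt-Nd1 at −0.381 (from 0.58). With the length offset, Ret was at 0.0789, Nefh at 0.0264 and mt-Nd1 at −0.205. Trpm8 was at −0.0909 with E and F out. Leaving out 1 library each, Trpm8 ran from −0.0485 to 0.354 and Nefh from −0.315 to 0.0664. With D and E out, 8 list medians changed sign: cold-sensing markers, red blood cell markers and mitochondrially encoded genes turned lower, and nicotinic and muscarinic receptors, potassium and HCN channels, TRP and Piezo channels, purinergic genes and GDNF family genes turned higher. Depth limits genes near 0.111 to 0.230 CPM, and 4 against 3 pools limit the rest.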
